A study of Mus musculus with 8 samples.

Results

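The 10 genes described here are regulators, receptors and effector proteins that neutrophils, monocytes and macrophages have in common, and they were measured in mouse proB cell colonies that were wild type or overexpressed HMGN1. They were taken from a fixed list of Ensembl gene IDs, and all 10 were found among the 27835 genes of the deposited table. They are the transcription factors Spi1, Cebpa and Cebpb, the cytokine receptor subunits Csf3r and Csf2rb, the integrin subunit Itgam, the signalling adaptors Fcer1g and Tyrobp, and the effector proteins Lyz2 and Cybb. The study compared 4 wild-type samples with 4 samples of transgenic cells overexpressing HMGN1, with 1 array per sample; HMGN1 is a protein that binds nucleosomes. In both groups, marrow cells were cultured in a methylcellulose medium for B cells, in which early B lineage progenitors form colonies, and the colonies were collected after 1 week as proB cells. Strain, age, and the promoter that drives the transgene are not given in the sources used here, nor is it stated whether the 4 samples of a genotype came from separate mice. P-values therefore rest on the spread among these arrays, and part of it may be technical.

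Myeloid cells and B cells arise from shared progenitors in the marrow, and the choice between them depends on the dose of a few transcription factors. PU.1, the product of Spi1, is needed for both lineages and is present at higher amounts in macrophages than in B cells. The C/EBP factors drive granulocyte and macrophage genes, and forced C/EBPα in B cell precursors turns them into macrophages. The receptors, adaptors and effector proteins of the list are well-known products of that myeloid programme, and Fcer1g is also part of the high-affinity IgE receptor of mast cells and basophils.

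In colonies labelled proB, each of the 10 genes had a mean intensity above that of the median gene, and Lyz2 had the highest intensity of all 27835 genes in each of the 8 arrays. The intensity of a probe set depends on its probes as well as on its RNA, so this order is one of signal and not of transcript number. The deposited IDs of other genes carry no symbols, so defining genes of proB cells or of other cell types were not checked here, and which cells of the colonies held these transcripts was not measured. In such bulk samples, fewer cells of a type and less RNA per cell cannot be told apart.

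No difference between the genotypes in these 10 genes was larger than the spread between arrays. By limma with Benjamini-Hochberg adjustment over all genes, 0 of the 10 passed an adjusted p of 0.05, with adjusted p from 0.594 to 0.995. Of all genes tested, 0.0144% passed, of which 0.0108% were higher and 0.00359% lower. At an unadjusted p under 0.05 there were also 0 of the 10, where 10.4% of all genes had such a p. The arrays of the 2 genotypes overlapped for all 10 genes, while 6.81% of all genes had genotypes that did not overlap. Fold changes were fitted to log2 intensities, so they can differ from the ratio of the mean intensities printed below, even in direction. The fold changes, HMGN1-overexpressing over wild type, had a median of -0.071 on the log2 scale, beside -0.0018 for all genes. By mean, 8 of the 10 genes lay below wild type and 2 above it, against 50.6% of all genes below. The 95% interval of the fold change lay inside 2-fold in both directions for all 10 genes and inside 1.5-fold for 9, the exception being Itgam.

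What varied was the level from array to array within a genotype, and most of the 10 genes varied together. Wild-type replicate 3 had the highest value of all 8 arrays for 9 of the 10 genes, where it had the highest value for 20.2% of all genes and the lowest for 22.2%. Among the 13917 genes above the median signal, where all 10 lie, that array was the highest for 24.7% and the lowest for 29.8%. An equal share would be 12.5%, so this array stood apart over all genes in both directions. The mean deviation of the 10 genes from their own averages over 8 arrays, on the log2 scale, was 0.31 in wild-type replicate 3, 0.067 in replicate 2, -0.13 in replicate 1 and -0.10 in replicate 4. In the HMGN1-overexpressing arrays it was 0.099, -0.14, -0.18 and 0.065 in replicates 1 to 4. Both genotypes thus held arrays with high and with low levels of these genes.

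**Figure D1:**
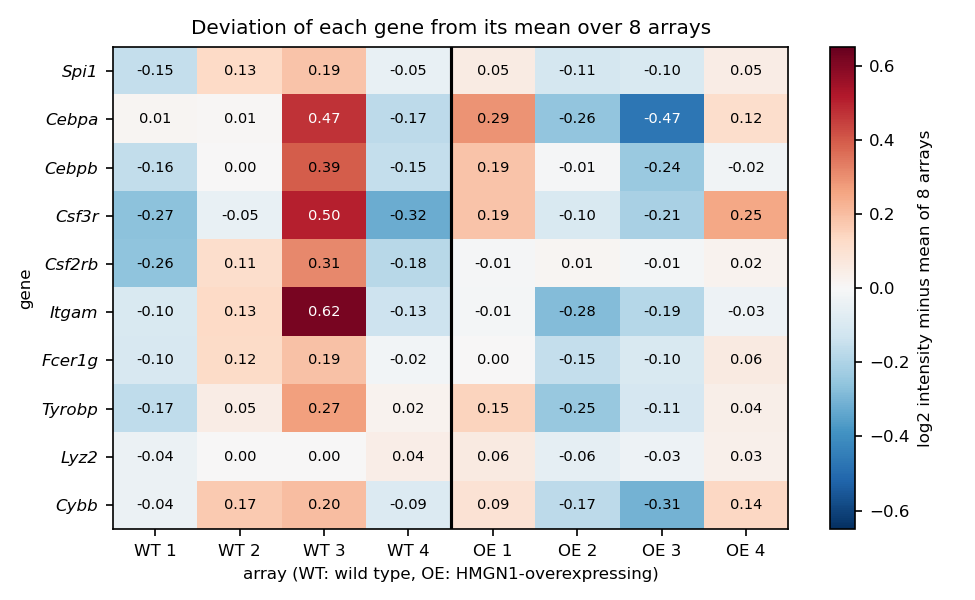
Log2 intensity of each gene minus its own mean over the 8 arrays, with arrays in columns (WT, wild type; OE, HMGN1-overexpressing) and genes in rows; red is above and blue below the gene's mean. The column of wild-type replicate 3 is red for 9 of the 10 genes, with a mean deviation of 0.31, and HMGN1-overexpressing replicate 3 has the lowest column mean at -0.18.

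Many of the genes shared the arrays in which they were high, while the lowest array differed between genes. For Spi1, Csf3r, Itgam, Fcer1g, Tyrobp and Cybb, 6 of the 10, the 4 highest arrays were wild-type replicates 2 and 3 and HMGN1-overexpressing replicates 1 and 4, as was the case for 3.91% of all genes. These 4 arrays were noticed after the values were seen, because the mean of the 10 genes was above 0 in each, so the count describes the order and tests nothing. Within wild type, replicate 1 lay below the genotype's mean for all 10 genes and replicate 4 for 9 of them. Among the HMGN1-overexpressing arrays, replicate 3 lay below the genotype's mean for all 10, and replicates 1 and 4 each lay above it for 9.

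The promoters of 4 genes are printed here: the 3 with the widest range over the 8 arrays (Cebpa, Itgam and Csf3r) and the 1 with the narrowest (Lyz2). The sequences are those of RefSeq on build GRCm38.p6, from 250 bases before to 50 after the start, on the gene's own strand, and the table held such a window for 7 of the 10 genes. Capitals mark GAGGAA, a sequence found in sites bound by PU.1, or TTCCTC, the same sequence on the other strand.
Cebpa, chr7:35119043-35119342, + strand: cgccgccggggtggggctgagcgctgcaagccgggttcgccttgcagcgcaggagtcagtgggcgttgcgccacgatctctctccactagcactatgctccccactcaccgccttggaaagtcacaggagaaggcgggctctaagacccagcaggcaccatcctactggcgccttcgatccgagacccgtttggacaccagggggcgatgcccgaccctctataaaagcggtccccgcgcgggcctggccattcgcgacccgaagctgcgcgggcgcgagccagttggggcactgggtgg
Itgam, chr7:128062390-128062689, + strand: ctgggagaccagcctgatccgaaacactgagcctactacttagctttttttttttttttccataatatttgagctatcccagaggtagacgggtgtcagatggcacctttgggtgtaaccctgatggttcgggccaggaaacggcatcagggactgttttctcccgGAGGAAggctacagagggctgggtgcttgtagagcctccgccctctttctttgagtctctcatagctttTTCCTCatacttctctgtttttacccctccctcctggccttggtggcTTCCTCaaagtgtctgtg
Csf3r, chr4:126024409-126024708, + strand: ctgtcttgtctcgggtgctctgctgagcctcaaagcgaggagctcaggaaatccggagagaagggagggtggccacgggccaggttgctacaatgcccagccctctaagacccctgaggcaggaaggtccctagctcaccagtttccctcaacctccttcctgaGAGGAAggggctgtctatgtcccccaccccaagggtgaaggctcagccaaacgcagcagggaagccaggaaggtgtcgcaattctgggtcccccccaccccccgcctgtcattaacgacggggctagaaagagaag
Lyz2, chr10:117282223-117282522, - strand: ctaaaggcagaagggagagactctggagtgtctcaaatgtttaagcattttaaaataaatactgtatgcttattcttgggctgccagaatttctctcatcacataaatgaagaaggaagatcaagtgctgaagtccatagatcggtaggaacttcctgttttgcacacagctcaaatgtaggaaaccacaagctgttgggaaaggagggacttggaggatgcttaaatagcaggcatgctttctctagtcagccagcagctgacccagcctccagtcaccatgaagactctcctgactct
Only this exact sequence was searched, so a window without it may still hold the shorter GGAA, as that of Lyz2 does. The exact sequence occurred 3 times in the Itgam window, once in that of Csf3r and once in that of Cybb. It was in none of the windows of Cebpa, Cebpb, Fcer1g and Lyz2. Thus 3 of 7 windows held the exact sequence, beside 28.3% of all 32851 windows in the table. A C/EBP motif, TTGCNNAA or TTNNGCAA on the other strand, was in 0 of the 7 and in 10.8% of all windows. These letters describe the windows and say nothing of binding in these cells or of the range over the arrays. The narrow range of Lyz2 has a limit that is given with its values.

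Among the transcription factors, Spi1 was the steadiest. Spi1 (ENSMUSG00000002111_at), which encodes PU.1, had intensities of 1130, 1375, 1431 and 1216 in wild-type replicates 1 to 4 and of 1304, 1163, 1173 and 1299 in HMGN1-overexpressing replicates 1 to 4. The 4 HMGN1-overexpressing arrays all lay inside the range of the wild-type arrays, of which replicates 2 and 3 were high. The means were 1288 ± 139 and 1235 ± 77.1 (SD, n = 4 each), and the fitted fold change was 0.962 (95% interval 0.840 to 1.10, limma adjusted p = 0.856). The highest array exceeded the lowest 1.27 times. The log2 fold change of -0.056 was -0.0035 without wild-type replicate 3 and -0.12 without wild-type replicate 1.

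Cebpa (ENSMUSG00000034957_at), which encodes C/EBPα, a factor needed for granulocyte formation, had the widest range of the 10 genes. Its intensities were 751, 747, 1030 and 662 in the wild-type arrays and 912, 623, 537 and 806 in the HMGN1-overexpressing arrays, in order of replicate number. Wild-type replicate 3 was the highest and HMGN1-overexpressing replicate 3 the lowest, 1.92-fold apart, and 2 of the 4 HMGN1-overexpressing arrays lay inside the wild-type range. The means were 798 ± 160 and 720 ± 171 (SD, n = 4 each), with a fold change of 0.896 (0.677 to 1.19, limma adjusted p = 0.794). On the log2 scale that was -0.16, and leaving out 1 array gave values from -0.28 (without HMGN1-overexpressing replicate 1) to -0.028 (without HMGN1-overexpressing replicate 3), with -0.029 without wild-type replicate 3.

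Cebpb (ENSMUSG00000056501_at) encodes C/EBPβ, a factor of macrophages and of granulocyte formation under stress. The wild-type arrays gave 288, 322, 423 and 289 and the HMGN1-overexpressing arrays 366, 321, 273 and 317. Wild-type replicate 3 and HMGN1-overexpressing replicate 1 were the highest of their genotypes, as they were for Cebpa. The fold change was 0.972 (0.791 to 1.20, limma adjusted p = 0.942), with mean intensities of 331 ± 63.7 and 319 ± 38.2 (SD, n = 4 each). Its log2 value of -0.040 became 0.085 without wild-type replicate 3, and neither passed the threshold.

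Both cytokine receptor genes had mean log2 values in the HMGN1-overexpressing arrays that were slightly above wild type, and neither difference passed the test. Csf3r (ENSMUSG00000028859_at) encodes the receptor for granulocyte colony-stimulating factor, which drives neutrophil production. It was measured at 355, 413, 605 and 341 in wild type and at 485, 398, 369 and 508 with HMGN1 overexpression. The 4 HMGN1-overexpressing arrays lay inside the wild-type range, in which replicate 3 was high. With means of 428 ± 122 and 440 ± 67.1 (SD, n = 4 each), the log2 fold change was 0.065 (SE 0.18, limma adjusted p = 0.928). Without wild-type replicate 3 the log2 fold change rose from 0.065 to 0.24, and did not pass either (limma adjusted p = 0.530).

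Csf2rb (ENSMUSG00000071713_at) encodes the beta subunit shared by the receptors for GM-CSF, IL-3 and IL-5. The closely related neighbour Csf2rb2 could share probe signal with it, so its values are uncertain to that extent. Its intensities were 3214, 4159, 4776 and 3393 in the wild-type arrays and 3823, 3885, 3812 and 3913 in the HMGN1-overexpressing arrays. The HMGN1-overexpressing arrays were nearly equal and sat in the middle of a broad wild-type range. The mean intensities were 3886 ± 721 and 3858 ± 48.8 (SD, n = 4 each). The mean log2 values were 11.9056 in wild type and 11.9137 with HMGN1 overexpression. The log2 fold change was thus 0.0081 (SE 0.12, limma adjusted p = 0.987), and it was 0.11 without wild-type replicate 3.

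**Figure D2:**
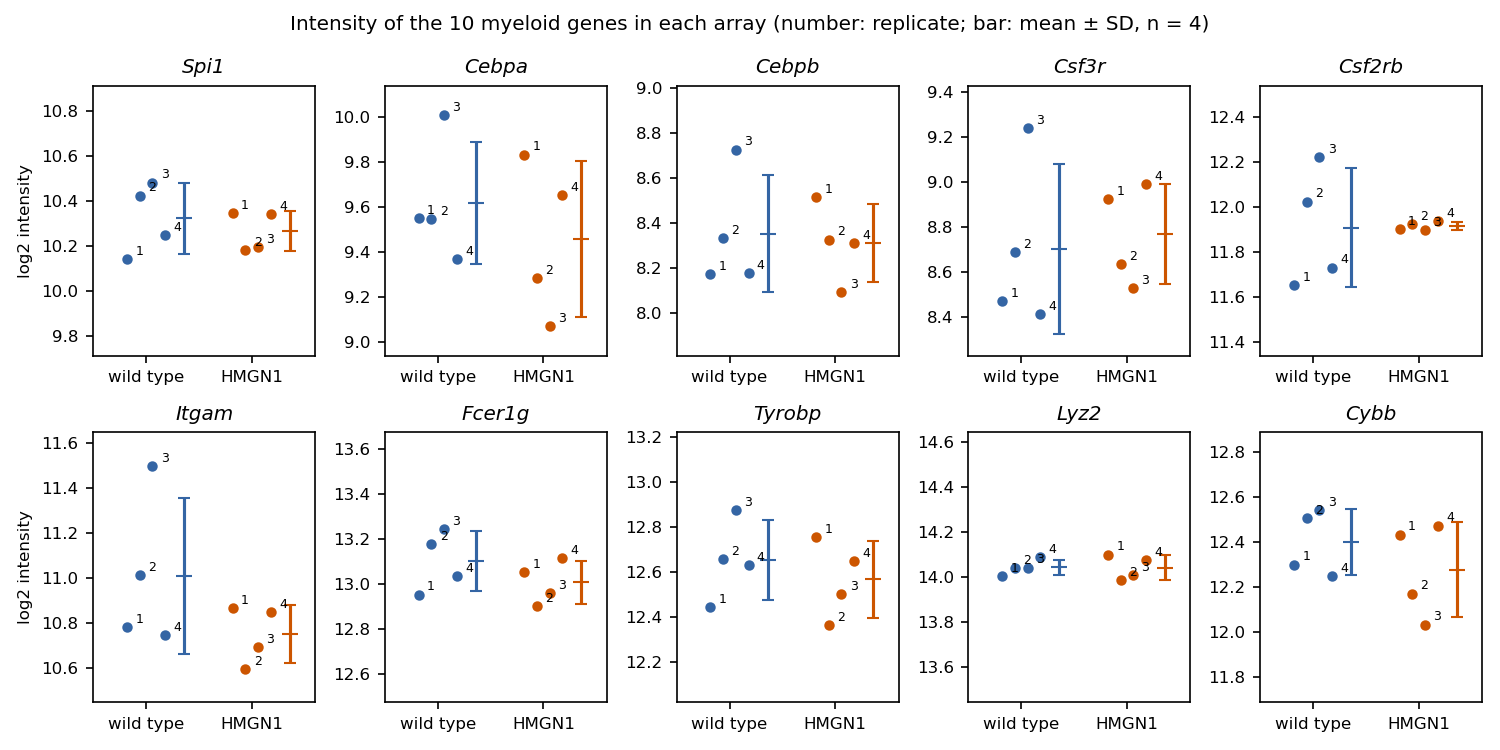
Log2 intensity of the 10 genes in each array, with 1 panel per gene; points are arrays with their replicate numbers, blue for wild type and orange for HMGN1-overexpressing, and bars are the mean ± SD of 4 arrays. All panels span the same log2 distance; the genotypes overlap in all 10, and wild-type replicate 3 is the highest point in every panel but that of Lyz2.

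Itgam (ENSMUSG00000030786_at) encodes CD11b, the alpha subunit of the integrin Mac-1, a surface marker of neutrophils and macrophages that binds complement fragments. It had the largest difference of the 10 genes on the log2 scale. The wild-type arrays were at 1759, 2063, 2888 and 1717, and the HMGN1-overexpressing arrays at 1864, 1547, 1653 and 1840. Wild-type replicate 3 was far above the rest, whereas wild-type replicates 1 and 4 lay below 2 of the HMGN1-overexpressing arrays. The means were 2107 ± 543 and 1726 ± 152 (SD, n = 4 each). The fitted fold change of 0.835 (0.658 to 1.06) did not pass the test (limma adjusted p = 0.594, unadjusted p = 0.123). The log2 fold change of -0.26 was -0.097 without wild-type replicate 3 (limma adjusted p = 0.765). It was -0.34 without wild-type replicate 1 and -0.35 without wild-type replicate 4. The last of these did not pass either (limma adjusted p = 0.487, unadjusted p = 0.0558).

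The signalling adaptors had high signal and small differences. By signal in an array, Fcer1g ranked from 36 to 80 of 27835 genes and Tyrobp from 83 to 214. The narrower range of the brightest genes, given below with Lyz2, may bear on them too, which was not tested. Fcer1g (ENSMUSG00000058715_at) encodes the common Fc receptor gamma chain, which carries the signal of activating Fc receptors. It read 7928, 9272, 9699 and 8400 in wild type and 8500, 7657, 7956 and 8871 with HMGN1 overexpression. Wild-type replicates 2 and 3 were high, and 3 of the 4 HMGN1-overexpressing arrays lay inside the wild-type range. The fold change was 0.936 (0.825 to 1.06, limma adjusted p = 0.714), with mean intensities of 8825 ± 806 and 8246 ± 544 (SD, n = 4 each).

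Tyrobp (ENSMUSG00000030579_at) encodes DAP12, the adaptor of TREM receptors and of activating receptors on natural killer cells. Its values were 5565, 6452, 7517 and 6348 in the wild-type arrays and 6909, 5271, 5793 and 6418 in the HMGN1-overexpressing arrays. As for Fcer1g, wild-type replicate 3 was the highest array and HMGN1-overexpressing replicate 2 the lowest. Mean intensities were 6471 ± 802 and 6098 ± 716 (SD, n = 4 each), and the fitted fold change was 0.943 (0.796 to 1.12, limma adjusted p = 0.821). For both adaptors the log2 fold change was nearer 0 without wild-type replicate 3, at -0.049 for Fcer1g and -0.010 for Tyrobp. Without wild-type replicate 1 it was -0.15 for each, against -0.096 and -0.085 over all 8 arrays.

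The effector genes are Lyz2 and Cybb, and the values of Lyz2 have a limit that is given below. Lyz2 (ENSMUSG00000069516_at) encodes lysozyme M, which cleaves bacterial cell walls and is widely used as a marker of myeloid cells, and its close paralogue Lyz1 could share probe signal with it. Its intensities were 16441, 16883, 16889 and 17428 in wild type and 17578, 16239, 16506 and 17273 with HMGN1 overexpression. They differed by at most 1.08-fold, in no order by genotype, and the fold change was 0.999 (0.917 to 1.09, limma adjusted p = 0.995).

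Each of these Lyz2 values was the maximum of its array, and the normalization brings the arrays to a common distribution. Quantile normalization of the deposited values made Lyz2 equal in all arrays, with a log2 fold change of 0, because its rank was 1 in each. The range over 8 arrays had a median of 0.23 on the log2 scale for the 100 brightest genes and of 0.37 for the 13917 genes above the median signal, and it was 0.11 for Lyz2. A change in Lyz2 RNA could therefore be understated here, and its flat profile cannot be set against the varying profiles of the other 9 genes.

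Cybb (ENSMUSG00000015340_at) encodes the membrane subunit of the NADPH oxidase that makes superoxide in phagocytes. It was at 5046, 5830, 5963 and 4870 in the wild-type arrays and at 5534, 4615, 4195 and 5692 in the HMGN1-overexpressing arrays. HMGN1-overexpressing replicates 2 and 3 were the lowest of the 8, while replicates 1 and 4 lay inside the wild-type range. The means were 5427 ± 549 and 5009 ± 721 (SD, n = 4 each), and the fitted fold change was 0.919 (0.772 to 1.09, limma adjusted p = 0.741). The log2 fold change of -0.12 was -0.040 without HMGN1-overexpressing replicate 3 and -0.19 without HMGN1-overexpressing replicate 4.

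**Figure D3:**
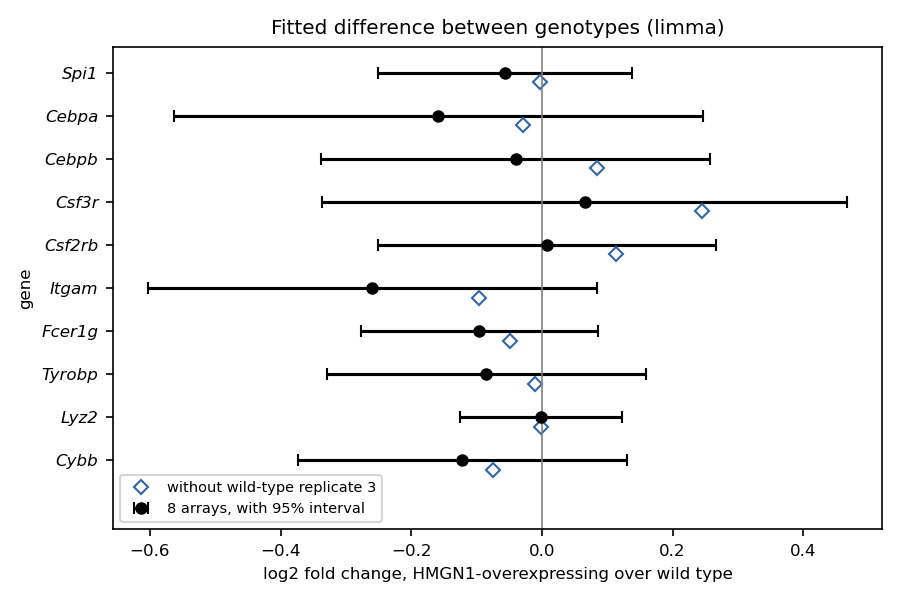
Log2 fold change of each gene, HMGN1-overexpressing over wild type, from limma over 8 arrays (filled circles with 95% intervals) and without wild-type replicate 3 (open diamonds, no interval drawn). All 10 intervals include 0; without that array Itgam moves from -0.26 to -0.097, Csf3r from 0.065 to 0.24, and Cebpb from -0.040 to 0.085.

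The spread within a genotype was above the typical value for most of these genes. The residual SD of the fit was above the median of 0.11 for genes above the median signal in 9 of the 10, with Lyz2 below it at 0.045. The limit given above for Lyz2, the maximum of each array, holds for this SD too. Cebpa and Csf3r had the widest residual SD, 0.31 each, followed by Itgam at 0.26 and Cebpb at 0.22. Csf2rb, Cybb and Tyrobp were at 0.19, 0.18 and 0.17, and Spi1 and Fcer1g at 0.13 and 0.12, close to that median. A wider spread gave a wider interval of the fold change, as for Cebpa (0.677 to 1.19) beside Spi1 (0.840 to 1.10).

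**Figure D4:**
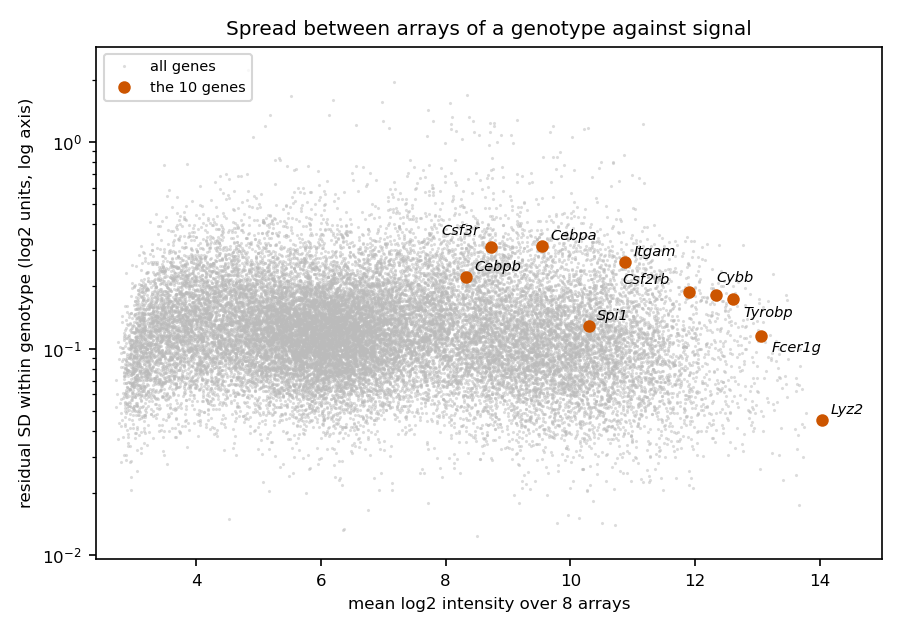
Residual SD within genotype (log2 units, logarithmic axis) against mean log2 intensity for all 27835 genes (grey) and the 10 genes described (orange). Cebpa and Csf3r lie high at 0.31 each, and Lyz2, the gene of highest signal, lies low at 0.045.

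Without wild-type replicate 3, the array with the highest values of these genes, again 0 of the 10 passed by limma at an adjusted p of 0.05 and 0 at an unadjusted p under 0.05. The median log2 fold change was then -0.0068 instead of -0.071, with 7 of the 10 genes below wild type by mean. Leaving out wild-type replicate 1 instead put all 10 below wild type, with a median of -0.13, and leaving out HMGN1-overexpressing replicate 3 put 6 below. What set wild-type replicate 3 apart was not tested.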

How the data were processed

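The deposited values were 1 intensity per gene and array on a linear scale, from 5.80 to 17578, made by the authors with RMA, per the submitters' processing notes; RMA corrects background, equalises the arrays' distributions and summarises probes. Array medians were 95.8 to 100.1. The scale was read from the values, and log2 was taken with no filter. Array model, gene definition version and genome build are not given in the sources used here. Symbols of the 10 genes came with the list of IDs. A reference table of 49997 genes paired 0 IDs with a symbol, so the 8 cell type marker lists and 6 pathway lists fixed for other genes were not run. The 10 genes and those lists were chosen with earlier results of these data known. The rule named all 10 genes.

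Genotypes, taken from the sample labels, were compared over 8 arrays with limma 3.58.1 in R 4.3.3 (lmFit, eBayes, no block), with Benjamini-Hochberg adjustment over 27835 genes. The fit was first run on simulated data with independent noise for each gene and array. Those data held no shifts shared by many genes of an array, so the fit was not tested under them. Errors are SD over n = 4 arrays, SE or 95% intervals of the fit. The number of arrays limits the precision. No 2 arrays were copies: 0.0144% to 0.108% of values were equal in each pair. Alternatives were each array left out in turn, an offset of 16 before log2, weights per array, a replicate block, median or quantile scaling, a variance trend with robust fitting, and a fit to the brighter genes only (above the median).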

Additional observations from a re-analysis of the deposited data

How the results depend on the processing

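Under all 15 alternatives 0 of the 10 genes were called, with 0 at an unadjusted p under 0.05 (limma adjusted p at least 0.486). The lowest unadjusted p by limma, 0.0558, was that of Itgam without wild-type replicate 4. Of 150 fold changes of a gene under an alternative, 137 kept their sign or were 0. On the log2 scale, Lyz2 became 0.016 with array medians subtracted, Csf2rb -0.011 with quantile normalization and Cebpb 0.026 with array weights. Leaving out 1 array gave -0.11 to 0.085 for Cebpb, -0.031 to 0.24 for Csf3r, -0.077 to 0.11 for Csf2rb and -0.021 to 0.018 for Lyz2. The other 6 genes stayed below 0. The median of the 10 ranged from -0.13 to -0.0068 with 1 array left out and from -0.078 to -0.048 under the others. The causes were not tested. Over all genes, 4 were called, 0 with the replicate block, and 0 to 40 with 1 array left out: 40 without HMGN1 replicate 1 and 9 without wild-type replicate 1. Deviations of same-numbered arrays were not positively correlated (r across genes -0.0777, -0.0879, -0.237 and -0.0946). The r was most negative for replicate 3. The block changed no call among the 10. Signal over background was not used here, so detection was not assessed.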

Other observations

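Csf2rb had an SD of 0.26 on the log2 scale in the wild-type arrays and of 0.018 in the HMGN1-overexpressing arrays, a ratio of 14.5. The ratio was as large or larger for 0.154% of all genes, with a median of 1.22. The gene was picked once its values were known, and the difference in spread was not tested. No array stood apart from its genotype by Dixon's test of the most extreme array in any of the 22 groups of values examined, 20 of single genes and 2 of the mean of the 10 genes, where chance gives about 1.1.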
